A study of Homo sapiens with 12 samples.

Results

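The genes described here are the replication-dependent histone genes: every protein-coding gene of the GENCODE annotation of the human genome (hg38) whose symbol is H1-1 to H1-6, or H2AC, H2BC, H3C or H4C followed by a number. The rule gave 69 of 20033 protein-coding genes: 6 for the linker histone H1, which binds the DNA between nucleosomes, and 17 for H2A, 18 for H2B, 13 for H3 and 15 for H4, the core histones that DNA wraps around. On chromosome 6 lay 55 of them, on chromosome 1 lay 13, and H4C16 was alone on chromosome 12. Genes on opposite strands that start head to head within 1 kb share a promoter, which was counted a single time, so the 69 genes had 56 promoters of 19050 coding promoters. Of these, 13 were divergent (12 pair an H2A with an H2B gene, and 1 pairs H3C7 with H2BC9) and 43 had a single histone gene.

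Most of these genes serve as the cell's supply of new histones in S phase, when chromatin is copied. They lie in clusters, have no introns, and make mRNAs that end in a conserved stem-loop in place of a poly(A) tail. NPAT, in nuclear bodies at the clusters, switches them on. Subtype factors act beside it: HINFP at H4 genes, the octamer-binding protein POU2F1 (OCT1) at H2B genes, and NF-Y, which reads the CCAAT box, at many promoters. HSF1 is the main transcription factor of the heat shock response and binds heat shock elements, inverted repeats of GAA.

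Untreated Huh7, a human hepatocellular carcinoma cell line, was profiled by CUT&Tag, in which an antibody directs a transposase to cut and tag the DNA near its target. One library was made with an antibody to HSF1 and 1 with an antibody to H3K27ac, a histone mark of active promoters and enhancers, so no value below has a replicate and no test between groups was run. A library without primary antibody was not analysed here, nor were the series' ChIP-seq and RNA-seq data, so levels of histone mRNA are not given. The HSF1 peaks rest on 2712212 tags after removal of duplicates and number 7147 on the chromosomes. The H3K27ac peaks rest on 896393 of 15737890 tags, which left 1299 peaks. Of 14 hepatocyte marker genes, 4 had an HSF1 peak (28.6%, against 25.4% of all coding genes) and 0 an H3K27ac peak (against 3.31%). Of 7 markers of blood, fibroblast, endothelial and squamous cells, HSF1 had a peak at 1 (COL1A1) and H3K27ac at 0. These counts are within counting error of the shares of all genes, so they do not check the cell type. All 69 genes had a single exon in their canonical transcript and a histone stem-loop within 150 bp after the stop codon, the features of their class. The stem-loop read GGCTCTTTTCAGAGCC in 40 genes and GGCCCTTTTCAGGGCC in 10.

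The promoter sequences below show what HSF1 CUT&Tag did and did not pick out. The first pair are the bound promoters. H3C3 is the unbound promoter nearest to a summit, H2BC12-H2AC12 has the most CCAAT boxes, and H1-5 and H4C6 come from families with no bound gene. Both are CCAAT-rich for their family: H1-5 is the H1 promoter with 2 boxes where the others have 1, and most H4 promoters have none. Each is read from hg38 and stops before the canonical starts; single promoters are the 150 bases before the start on the gene's strand, and divergent ones the bases between the starts on the plus strand. Capitals mark the CCAAT box on either strand. They also mark the TATA motif, spelled TATAAA, and the octamer, spelled ATTTGCAT, again on either strand.
H2BC3 (chr6:26043714-26043863, minus strand): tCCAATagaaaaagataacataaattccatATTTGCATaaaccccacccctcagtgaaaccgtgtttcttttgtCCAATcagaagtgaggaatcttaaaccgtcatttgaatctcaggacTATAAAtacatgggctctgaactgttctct
H2AC25-H2BC26 (chr1:228457874-228458102, plus strand): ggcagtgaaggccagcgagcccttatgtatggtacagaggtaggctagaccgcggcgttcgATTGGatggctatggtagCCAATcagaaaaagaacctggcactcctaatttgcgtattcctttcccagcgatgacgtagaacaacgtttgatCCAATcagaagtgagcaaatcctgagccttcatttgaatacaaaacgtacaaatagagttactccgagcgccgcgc
H3C3 (chr6:26045234-26045383, plus strand): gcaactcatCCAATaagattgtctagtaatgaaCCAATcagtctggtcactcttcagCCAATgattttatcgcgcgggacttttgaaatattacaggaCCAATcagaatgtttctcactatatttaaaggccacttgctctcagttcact
H2BC12-H2AC12 (chr6:27146856-27147105, plus strand): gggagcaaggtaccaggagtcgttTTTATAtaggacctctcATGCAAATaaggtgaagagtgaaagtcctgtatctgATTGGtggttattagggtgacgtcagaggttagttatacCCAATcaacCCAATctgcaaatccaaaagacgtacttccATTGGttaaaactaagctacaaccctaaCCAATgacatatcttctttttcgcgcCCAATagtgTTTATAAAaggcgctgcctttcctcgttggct
H1-5 (chr6:27867589-27867738, minus strand): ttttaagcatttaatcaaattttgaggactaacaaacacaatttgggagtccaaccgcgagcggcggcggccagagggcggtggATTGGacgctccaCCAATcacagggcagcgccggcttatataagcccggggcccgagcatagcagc
H4C6 (chr6:26240243-26240392, plus strand): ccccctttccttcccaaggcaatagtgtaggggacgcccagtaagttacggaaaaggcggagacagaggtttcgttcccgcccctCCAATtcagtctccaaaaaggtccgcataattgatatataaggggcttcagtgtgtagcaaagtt
The H2BC3 sequence holds 2 CCAAT boxes, an octamer and TATAAA. H2AC25-H2BC26 holds 3 CCAAT boxes and neither of the other motifs. H3C3, which had no peak within 1 kb, holds 4 CCAAT boxes, and H2BC12-H2AC12, also without one, holds 6.

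HSF1 peaks were rare at these promoters. A gene was called bound where the summit of an HSF1 peak lay within 1 kb of any of its annotated transcript starts. By this measure 3 of the 69 genes were bound (4.35%, exact 95% binomial interval 0.906 to 12.2%), against 25.4% of all protein-coding genes. By promoter the count was 2 of 56 (3.57%, interval 0.435 to 12.3%), against 24.1% of all coding promoters. With peaks of at least 5 on the −log10 q-value scale, it was 1 of 56 (1.79%), against 20.8%. The intervals cover counting error only, and neighbouring, often near-identical genes are not independent.

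The bound genes were H2BC3 on chromosome 6 and the divergent pair H2AC25 and H2BC26 on chromosome 1. The H2BC3 peak (chr6:26043664-26043863, hg38) had its summit 58 bp upstream of the start. Its pileup, the number of overlapping extended tags at the summit, was 11. The fold enrichment, the ratio of pileup to local background after a constant is added to both, was 5.50. The q-value was 4.87 on the −log10 scale. The peak between H2AC25 and H2BC26 (chr1:228457815-228458041) had its summit 9 bp upstream of the H2AC25 start and 221 bp upstream of the H2BC26 start. The pileup there was 12 and the fold enrichment 6.44, with 6.47 for the −log10 q-value. Both peaks were therefore of modest height: the 4588 bound coding promoters had a median pileup of 14 (quartiles 11 and 19, highest 81) and a median fold enrichment of 7.24. Of those promoters, 24.8% had a lower pileup than H2BC3 and 33.2% a lower one than H2AC25-H2BC26. By fold enrichment the shares were 10.7% and 29.9%. Within 100 bp of each summit lay 2 CCAAT boxes, the nearest 16 bp from the H2BC3 summit and 55 bp from the other. All 17 H2A and 18 H2B genes, bound or not, held CCAAT near the start, so this does not set the bound ones apart.

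The other 54 promoters had no HSF1 summit within 1 kb. The distance from their starts to the nearest summit ran from 1613 to 423847 bp, with a median of 143047.5 bp. No distance from other places in the genome is set beside these values. Neighbouring promoters also share their nearest summits, so the distances are not independent. Only H3C3, at 1613 bp, lay within 10 kb, and the summit nearest to it was the one at H2BC3. The values on either side of the 1 kb limit were thus 221 bp (H2BC26) and 1613 bp (H3C3).

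By family, 1 of 17 H2A genes was bound (5.88%, interval 0.149 to 28.7%) and 2 of 18 H2B genes (11.1%, interval 1.38 to 34.7%). None of the 6 H1, 13 H3 and 15 H4 genes was bound (intervals up to 45.9%, 24.7% and 21.8%). The 25.4% of all protein-coding genes lies inside the H1, H2A and H2B intervals and above the H3 and H4 ones. Without genes of mostly repeated sequence, described further on, 0 of 10 H3 (up to 30.8%) and 0 of 13 H4 (up to 24.7%) were bound. The families' intervals overlap widely, so 3 bound genes over 2 promoters cannot order them.

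On chromosome 6, 1 of 44 promoters was bound (2.27%, interval 0.0575 to 12%). Over all coding promoters of that chromosome 215 of 992 were bound (21.7%, interval 19.1 to 24.4%), so the histone promoters' share was low for their own chromosome too. The 55 genes there form 3 groups more than 500 kb apart, with 29, 3 and 12 promoters. H2BC3 in the first group was the bound one. It is flanked by H2AC4 and H3C3, both without a peak.

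On chromosome 1, 1 of 11 promoters was bound (9.09%, interval 0.23 to 41.3%), against 21.4% of all coding promoters there. Leaving out the 8 promoters of mostly repeated sequence, described further on, 1 of 3 was bound (33.3%). The main group, 11 genes from 10 promoters, had 0. The bound pair H2AC25 and H2BC26 makes up the second, distant group, and H4C16 on chromosome 12 was unbound.

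The stretch of chromosome 6 from the first to the last histone gene held HSF1 peaks at a rate near that of the chromosome. Over its 2.17 Mb it held 4 HSF1 peaks, or 1.85 per Mb, against 2.17 per Mb over the chromosome. Coding promoters stood at 29.1 per Mb there and at 5.81 per Mb over the chromosome. The stretch is bounded by the histone genes, and its density includes their 44 promoters, of which 1 was bound. The 2 densities are therefore no separate result about the stretch. Of the 4 summits, 1 was at H2BC3 and 1 lay 133 bp from the start of ZNF184, a zinc finger gene. The others lay 24838 bp from H1-1 and 55498 bp from H2BC13. Of the 19 coding promoters in this stretch that belong to other genes, 1 was bound (5.26%, interval 0.133 to 26.0%). That interval also holds the share of the whole chromosome, so whether these neighbours differ from it was not detectable.

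The antibody to H3K27ac gave no peak within 1 kb of any of the 56 promoters (0%, interval up to 6.38%), against 3.06% of all coding promoters. The nearest summit in the chromosome 6 stretch was 22126 bp from H2BC1, with a pileup of 4. Since so few coding promoters had a peak in this library, 0 of 56 lies within counting error of the background. Neither HSF1 peak at a histone promoter overlapped an H3K27ac peak.

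Histone promoters were rich in CCAAT boxes. From 150 bp before to 50 bp after the start, on either strand, 44 of 56 promoters held CCAAT (78.6%, interval 65.6 to 88.4%), against 28.8% of all coding promoters. At least 2 boxes stood in 32 of 56 (57.1%, interval 43.2 to 70.3%), against 8.24% of the 18994 other coding promoters. A divergent promoter was searched over the windows of both starts, so over more sequence. Among single promoters, at least 2 boxes stood in 19 of 43 (44.2%), against 7.68% of other single ones. Over all 56 promoters the boxes numbered 105. The presence of CCAAT split by family: it was found in all 6 H1, 17 H2A, 18 H2B and 13 H3 genes, but in 3 of 15 H4 genes (H4C6, H4C9 and H4C13). The H2A/H2B pairs, whose starts lay 194 to 251 bp apart, held 3 to 6 boxes each. The shares were alike on the chromosomes, at 35 of 44 promoters on chromosome 6 (79.5%) and 9 of 11 on chromosome 1 (81.8%).

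The TATA motif was common in every family, and the octamer was found near H2B and some H2A genes. TATAAA, the TATA motif that places the start, was found in 35 of 56 promoters (62.5%, interval 48.5 to 75.1%) and 7.24% of other coding promoters. By gene it was in 3 of 6 H1, 12 of 17 H2A, 8 of 18 H2B, 10 of 13 H3 and 7 of 15 H4, with intervals that overlap. The octamer ATTTGCAT, read by POU2F1, was in 15 of 56 promoters (26.8%) and 0.932% of others. It was in 14 of 18 H2B genes (77.8%) and 5 of 17 H2A genes (29.4%), and in no H1, H3 or H4 gene. A heat shock element with at most 1 mismatch was in 1 of 56 promoters (1.79%), that of the unbound H3C2, against 2.81% of others. Neither bound promoter held one in this window. Both strands were searched, and TTTATAAA, which reads as TATAAA on both, counts as 2. These are matches of letters in the reference, not sites shown to be used.

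**Figure D1:**
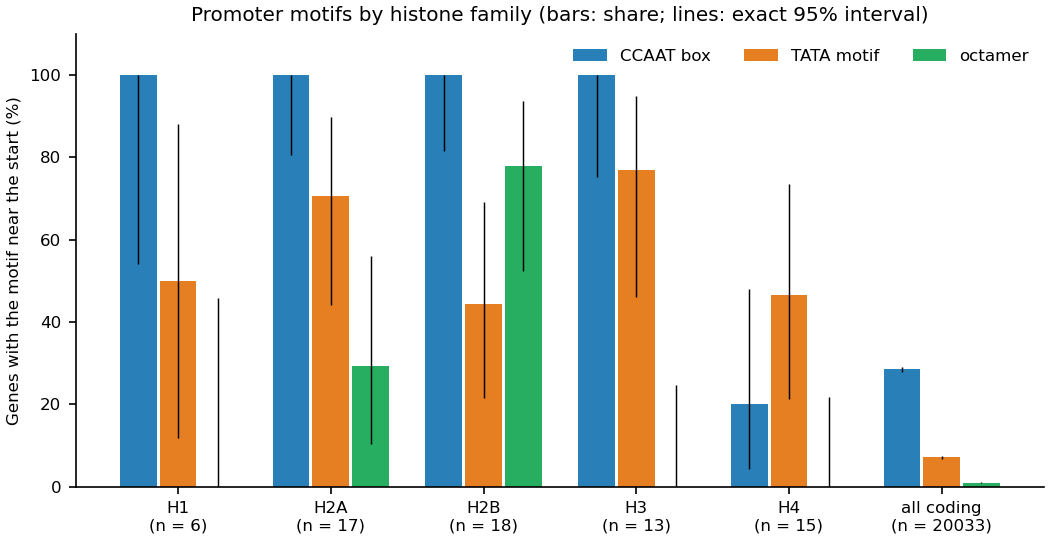
Share of genes (percent, vertical axis) with the CCAAT box, the TATA motif or the octamer from 150 bp before to 50 bp after the start in each histone family and in all coding genes; lines are exact 95% intervals. CCAAT is in every H1, H2A, H2B and H3 gene and in 3 of 15 H4 genes, and the octamer is in H2B and some H2A genes.

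Elsewhere in the genome, CCAAT-rich promoters and divergent promoters were bound more often than the average one. Of other coding promoters with at least 2 CCAAT boxes, 710 of 1565 had an HSF1 peak (45.4%), of those with CCAAT 1742 of 5436 (32%), and of those without it 2844 of 13558 (21.0%). Of the 899 other divergent promoters 496 had one (55.2%, interval 51.9 to 58.5%). Among histone promoters the corresponding counts were 2 of 32 with at least 2 boxes (6.25%, interval 0.766 to 20.8%) and 1 of 13 divergent ones (7.69%). The intervals do not overlap in either pair.

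The histone promoters differed from those promoters in base composition. Their median GC content, over the same window, was 46.3% (range 36.0 to 61.0%), against 65.5% for other coding promoters and 68.0% for the bound ones among them. The HSF1 share of other coding promoters changed steeply with GC. It was 3.52% at 40 to 45% GC, 5.34% at 45 to 50%, 10.8% at 50 to 55%, 21.5% at 55 to 60% and 34.9% at 65 to 70%, and then fell to 25.9% at 75 to 80% and 15.7% at 80 to 85%, above the histone range. Of those within the middle 50% of the histone range (42.5 to 51.4% GC), 97 of 1819 were bound (5.33%, interval 4.35 to 6.47%), and of the 29 histone promoters in that range 1 was bound (3.45%, interval 0.0873 to 17.8%). With that GC and at least 2 CCAAT boxes, 16 of 143 were bound (11.2%, interval 6.53 to 17.5%). This interval overlaps that of the histone promoters with at least 2 boxes (0.766 to 20.8%), a set not limited to that GC. Of the 19 histone promoters at 50% GC or more 0 were bound (interval up to 17.6%), while other promoters, weighted to the same 5-point steps of GC, were bound at 16.9%. Among these 19 are H4C14, H3C14, H3C15 and H4C15, of repeated sequence described further on, where the absence of a peak cannot be read. Over all 56, with the repeated promoters kept in, the same weighting gave 4.71 bound promoters (8.41%) against the 2 observed. The 8.41% lies inside the interval of the histone promoters. A shortage of HSF1 peaks beyond that of other promoters of like GC content was therefore not detectable with this number of promoters. The part of GC content in the low share was not tested, and GC moves with other properties of promoters.

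Other coding groups that share a property with the histone genes also had low shares. Of other promoters with TATAAA, 122 of 1376 were bound (8.87%). Of those of single-exon genes 53 of 1015 were (5.22%, interval 3.94 to 6.77%), and of these with CCAAT 26 of 285 (9.12%). Since these properties go together with GC, their parts cannot be told apart here.

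Near-identical copies among histone genes can take tags away from both copies, since a tag that fits several places is hard to assign. To see where this matters, the share of 32-base words within 500 bp of each start that occur a single time on the hg38 chromosomes was counted. At least 90% of words were unique in 32 of 56 histone promoters (57.1%), against 86.0% of other coding promoters. All 8 histone promoters with under 50% unique words were in the main chromosome 1 group. H4C14, H3C14, H2AC18, H2AC19, H3C15 and H4C15 had 0%, H3C13 had 18.9% and H2BC18 had 24.5%, so the absence of peaks there cannot be read. For a divergent promoter the value is the mean over both starts. On chromosome 6 the median was 96.6% and the lowest promoter value 50.7% (H4C11 and H4C12).

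Of the 32 mostly unique histone promoters, 1 was bound (3.12%, interval 0.0791 to 16.2%), against 26.0% of 16334 other coding promoters with as much unique sequence. Leaving out only the 8 repeated promoters, 2 of 48 were bound (4.17%). The H2AC25-H2BC26 promoter, which was bound, had 80.2% unique words and H2BC3 had 96.2%. Copies on alternate contigs of the assembly held at most 11.4% of a promoter's words (H4C7).

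Genes whose products act on histone genes, their mRNAs or histone proteins are given beside the 25.4% of all protein-coding genes that were bound. These lists were counted by gene, so a peak at a promoter shared with a gene outside the list counts too. They were not matched for GC content or for divergent promoters, of which 55.2% were bound outside the histone genes. Of 19 genes for histone gene expression and mRNA processing, 13 were bound (68.4%, interval 43.4 to 87.4%), and NPAT, the coactivator of the clusters, led them with a pileup of 37 and a fold enrichment of 12.7. NCBP1, a subunit of the cap-binding complex, had a pileup of 26, and CASP8AP2, a component of the histone locus bodies, 21. POU2F1 had 20, HINFP 11, and LSM11, a subunit of the U7 particle that cuts histone pre-mRNA, 10. SLBP, which binds the stem-loop, was among the 6 unbound, with LSM10, CSTF2, CSTF2T, GON4L and SRRT.

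Of 14 genes for histone chaperones and import factors, 9 were bound (64.3%, interval 35.1 to 87.2%). ASF1B, a chaperone of H3 and H4, had a pileup of 22, ASF1A and NAP1L1 had 16 each, and NASP had 14. CHAF1A, the large subunit of the assembly factor CAF-1, had 13, while CHAF1B, SUPT16H, SSRP1, IPO4 and IPO9 had no peak. Of the NF-Y subunits, NFYA was bound with a pileup of 43, and NFYB and NFYC were not.

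Histone genes outside the symbol rule were bound at 6 of 18 (33.3%, interval 13.3 to 59.0%), near the share of all genes. They are listed as replication-independent, but the stem-loop was not looked for in them, so this name was not checked. The bound ones were H2AZ2 (pileup 24), H2AZ1 and H2AX (18 each), CENPA (14), H3-3B (12) and H3-3A (10). The lists were chosen with results of these data known, so these counts describe the genes and single out no list. An H3K27ac peak was found at LSM10 and CPSF2 (2 of 19 expression and processing genes, interval 1.30 to 33.1%). RBBP4 and NAP1L1 also had one (2 of 14 chaperone and import genes, interval 1.78 to 42.8%). Both intervals hold the 3.31% of all coding genes.

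**Figure D2:**
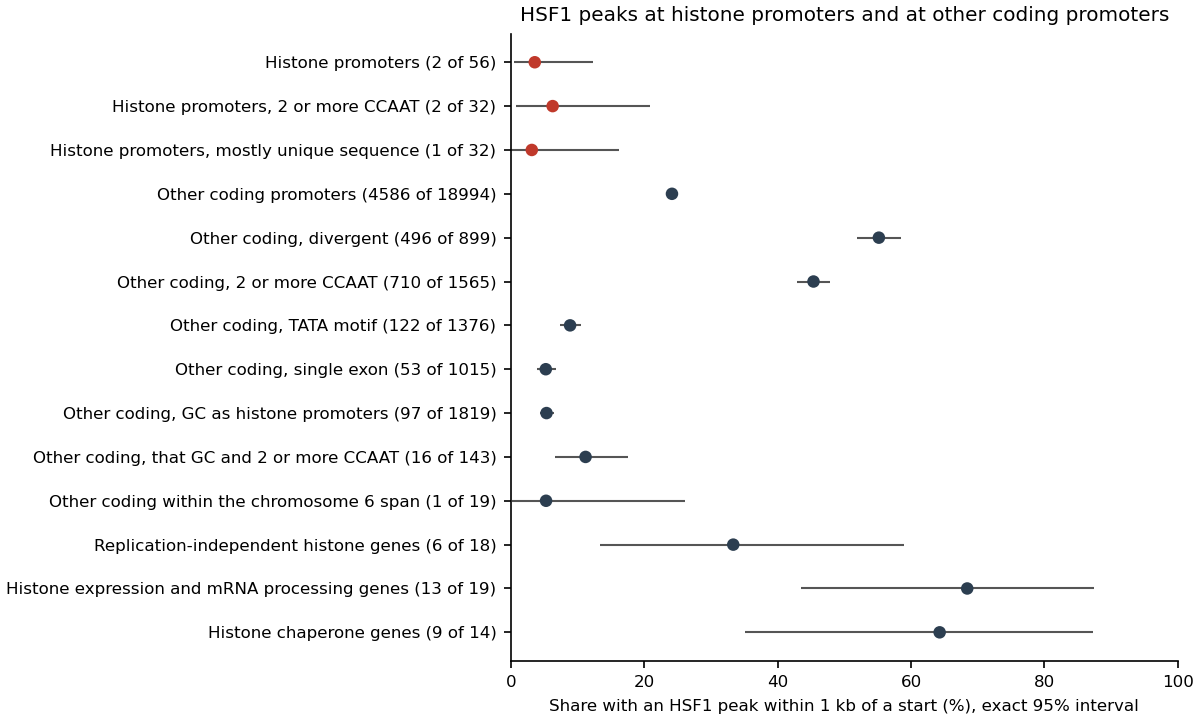
Share of promoters or genes with an HSF1 peak (percent, horizontal axis) with exact 95% binomial intervals; red points are histone promoters and dark points other coding promoters and gene lists, with counts in the labels. Histone promoters (3.57%) lie below other CCAAT-rich (45.4%) and divergent (55.2%) promoters; the row for like GC (5.33%) covers the middle 50% of the histone GC range, where 29 of the 56 histone promoters lie.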

How the data were processed

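Peaks came from 2 CUT&Tag libraries of untreated Huh7. The authors aligned reads to hg38 with Bowtie2 and called peaks with MACS; per the file headers this was version 2.1.4 with a p cutoff of 1e-05, a shift of -100 bp and an extension of 200 bp, without a control library. The deposited columns hold a pileup signal at each summit, −log10 p-values, −log10 q-values and a fold enrichment. The last is a ratio of pileup to local background after a constant is added to both. The q columns hold values although the header says that none were calculated. Depth was 2712212 (HSF1) and 896393 (H3K27ac) tags after duplicates.

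A promoter was bound where a summit lay within 1 kb of any GENCODE 44 transcript start. Motifs were counted from 150 bp before to 50 bp after canonical starts, and 32-base words within 500 bp were counted over the chromosomes. Shares carry exact (Clopper-Pearson) 95% intervals. All member genes were taken by the symbol rule, with bound promoters given in full. The members and lists were chosen with earlier results of these data known, and groups of other promoters by GC content, motif and exon number were set after seeing the data. Sequences were read with pysam 0.24.0, intervals came from scipy 1.17.1, and tables were handled with pandas 2.3.3 under Python 3.11.15. The steps were tested on simulated data and passed 5 of 5 checks. The 2 ChIP-seq peak lists, whose headers name another build, were not used, and RNA-seq was not analysed here.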

Additional observations from a re-analysis of the deposited data

How the results depend on the processing

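Each share was recomputed with windows of 500 bp and 2 kb, canonical starts only, any base of the peak in place of the summit, stricter peaks, other distances for joining head-to-head starts and repeated promoters left out, where each applied. Of 77 alternatives over 11 results, 73 were counted as unmoved, for shares by the interval of the value. The median pileup has no interval. Some alternatives could not move a share: leaving out repeated promoters took away none of the 6 H1 genes or the 44 chromosome 6 promoters. The share of chromosome 6 promoters with an HSF1 peak went to 0% with peaks of at least −log10 q 5, since the H2BC3 peak is at 4.87. Fold enrichment in place of pileup gave a median of 5.97 for the bound promoters, on another scale than the pileup median of 11.5. CCAAT within 100 bp of the HSF1 summit was found at 100% (2 of 2) of bound promoters. No share over all bound coding promoters is given beside it, and every H2A and H2B gene held CCAAT near its start. A longer NF-Y motif, CCAAT after a pair of purines and before C or G and a purine, was found at 53.6% of histone promoters. With the 2 kb window H3C3 joined the bound promoters (3 of 56, 5.36%, against 24.9% of coding promoters). The stricter −log10 q also took the share of all histone promoters to 1.79% and of H2B genes to 5.56%, and leaving out repeated promoters took chromosome 1 to 33.3% (1 of 3). With 1 bound promoter on each of chromosomes 6 and 1, single peaks decide those shares. The HSF1 library lists pileups from 4 upward, so weaker binding was not detectable at this depth. No paired analysis was possible because each antibody had 1 library and no test was run.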
